A study of Homo sapiens with 2 samples.

Results

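The genes described here are HSF1, the transcription factor that switches on the heat shock response, and 9 genes of the chaperones and cochaperones it is known for: HSPA1A, HSPA1B, HSPA8, HSPH1, DNAJB1, HSP90AA1, HSP90AB1, BAG3 and HSPB1. They were chosen by name, not by a measured value, but with earlier results of these data known, as were the other gene lists below. The members are 10 of the 20033 protein-coding genes of the GENCODE 44 annotation on chromosomes 1 to 22, X and Y. HSPA1A and HSPA1B are neighbouring near-identical copies and were counted as 1 locus, which gives 9 loci. Every deposited peak within 1000 bp of a transcription start site (TSS) of these genes, over their bodies or within 100 kb of a TSS on these chromosomes was taken, 56 in control and 47 in treated cells.

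The study asked how methylglyoxal (MGO), a reactive by-product of glycolysis that modifies histones, changes the architecture of chromatin. Accessibility of DNA was read with ATAC-seq: the transposase Tn5 cuts and tags open DNA, and sequenced tags gather into peaks. The cells of both groups were 293T, a line of human embryonic kidney cells that carries the SV40 large T antigen, and 50000 cells were used for each library. One library came from cells given 0.5 mM MGO for 12 h and 1 from control cells, for which 1 label names PBS while the protocol describes plain fresh medium. No further replicate was analysed here, so no test between the conditions was possible and every difference is a difference between 2 libraries. Such a difference cannot tell fewer open cells from less open chromatin in each cell.

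The deposited lists hold 36142 control and 22884 MGO peaks. For each peak they give a fold enrichment, which is the read pileup over the local background, and −log10 of a p-value and of a q-value, where higher means a more confident peak. They hold no read counts, so the depth behind a peak is unknown, although the authors equalized the number of reads between samples. All peaks were used, and the lowest −log10 q in either list was 1.01, so the lists reach below the threshold of 2 (q of 0.01) used for later steps in the study. The 5 genes taken as markers of 293T cells, PAX2, NEFL, NEFM, INA and VIM, had a TSS peak in both libraries. Of the markers of other cell types, PTPRC and CD3E (lymphocytes), ALB and APOA2 (hepatocytes) and CDH5 and PECAM1 (endothelium) had none in either library, and MYOD1 (muscle) had one in the control alone.

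In unstressed cells HSF1 is held inactive by chaperones, among them HSP90 and HSP70. When misfolded proteins draw the chaperones away, HSF1 forms trimers and binds heat shock elements, which are alternating inverted repeats of the unit GAA, and this raises transcription of chaperone genes. HSP70 proteins fold clients in a cycle that J-domain proteins (HSP40) start and nucleotide exchange factors (HSP110 and BAG proteins) reset. HSP90 matures kinases and receptors, and small heat shock proteins hold unfolded chains until HSP70 takes them. In flies, heat shock promoters are the textbook case of promoters kept open and loaded with a paused polymerase before any stress.

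The sites that HSF1 could recognise were located first, so that the peaks could be set beside them. The letters searched were GAANNTTCNNGAA and, for the other strand, TTCNNGAANNTTC, where N is any base. Exact matches within the TSS regions of the genes and the closest matches at HSPA1A and HSPA1B are given in 29 bases of GRCh38, read 5′ to 3′ along the gene, with the 13 matched bases in capitals.
HSPA8, chr11:123062171-123062199, minus strand: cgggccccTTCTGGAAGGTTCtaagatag
HSPA8, chr11:123062346-123062374, minus strand: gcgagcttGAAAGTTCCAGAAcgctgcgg
HSPH1, chr13:31161943-31161971, minus strand: gccgcagaTTCTGGAAAGTTCtgatcagt
HSP90AA1, chr14:102087112-102087140, minus strand: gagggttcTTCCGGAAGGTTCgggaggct
HSP90AB1, chr6:44247770-44247798, plus strand: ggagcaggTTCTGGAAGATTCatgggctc
HSP90AB1, chr6:44247823-44247851, plus strand: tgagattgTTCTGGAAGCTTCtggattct
HSPB1, chr7:76303612-76303640, plus strand: gaatcgaaGAACTTTCCGGAAgtttctga
HSPA1A (1 mismatch), chr6:31815429-31815457, plus strand: aaaccctgGAATATTCCCGACctggcagc
HSPA1B (1 mismatch), chr6:31827625-31827653, plus strand: aacccctgGAATATTCCCGACctggcagc
The HSPB1 stretch holds a second match that starts 5 bases further on and shares bases with the first. Those of HSPA8, HSPH1 and HSP90AA1 lay before the canonical TSS, at 55 and 230, 59 and 88 bp. The HSP90AB1 matches lay 88 and 35 bp before another, downstream TSS of the gene.

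Among the 35116 RefSeq promoters of GRCh38.p14, each 250 bases before to 50 after a start, 0.49% held an exact match. Of the 14 promoters that matched the symbols of 9 of the members (all but HSF1), 3 held one, at HSPA8, HSP90AA1 and HSP90AB1. With 1 mismatch allowed, 8 of the 14 held a match, against 6.24% of all promoters. A GC box, GGGCGG on either strand, was in 13 of the 14 against 45.0%, and a CCAAT box (CCAAT) in 7 against 34.6%. The exact letters TATAAA, searched for as a TATA box, were in 2 against 7.33%, namely HSPA1A and HSPA1B. The canonical promoter of HSP90AA1 reads TATATAAG close to its TSS, which that exact search does not count. A match describes the letters and does not show a bound site. The 250 bases before the canonical TSS of HSP90AA1, chr14:102087045-102087294 on the minus strand (RefSeq, GRCh38.p14), show how such a promoter is built, with the match in capitals. They lie in both the control and the MGO peak.
HSP90AA1 promoter: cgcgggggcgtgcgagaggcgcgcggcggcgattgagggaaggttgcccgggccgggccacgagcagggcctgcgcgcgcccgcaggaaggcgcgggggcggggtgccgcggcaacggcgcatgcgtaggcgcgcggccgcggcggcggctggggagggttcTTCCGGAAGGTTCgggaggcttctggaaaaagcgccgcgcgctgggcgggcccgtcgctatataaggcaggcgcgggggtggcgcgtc

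On the primary chromosomes, all heat shock loci other than HSPA1A/HSPA1B had a TSS peak in both libraries. Of the 9 loci, 8 had a control peak within 1000 bp of a TSS, beside 67.3% of all protein-coding genes, and the same 8 had an MGO peak, beside 63.9%. With all deposited peaks no locus had a peak in 1 library alone, beside 4.72% of genes with a control peak only and 1.26% with an MGO peak only. That did not hold under other settings: at a −log10 q of 2 or more, 7 loci had a control and 8 an MGO peak, HSPB1 being in MGO alone, and with equal numbers of peaks from each list 6 had a control and 8 an MGO peak. There were 10 TSS peaks in each list, since DNAJB1 and HSP90AA1 each had a second peak at an upstream TSS. Each of the 10 control TSS peaks overlapped an MGO peak by at least 1 bp (100%, 95% Wilson interval 72.2 to 100), beside 87.7% of the 13271 control TSS peaks of protein-coding genes. The interval covers counting error only and includes the background share. Of the 85 distinct TSSs of the members, 59 lay within 1000 bp of a control peak and 61 within 1000 bp of an MGO peak. Many of these TSSs share a peak, and no share over all annotated TSSs is given beside them. The counts differed only at HSPA8, with 15 of its 20 TSSs in control and 17 in MGO.

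**Figure D1:**
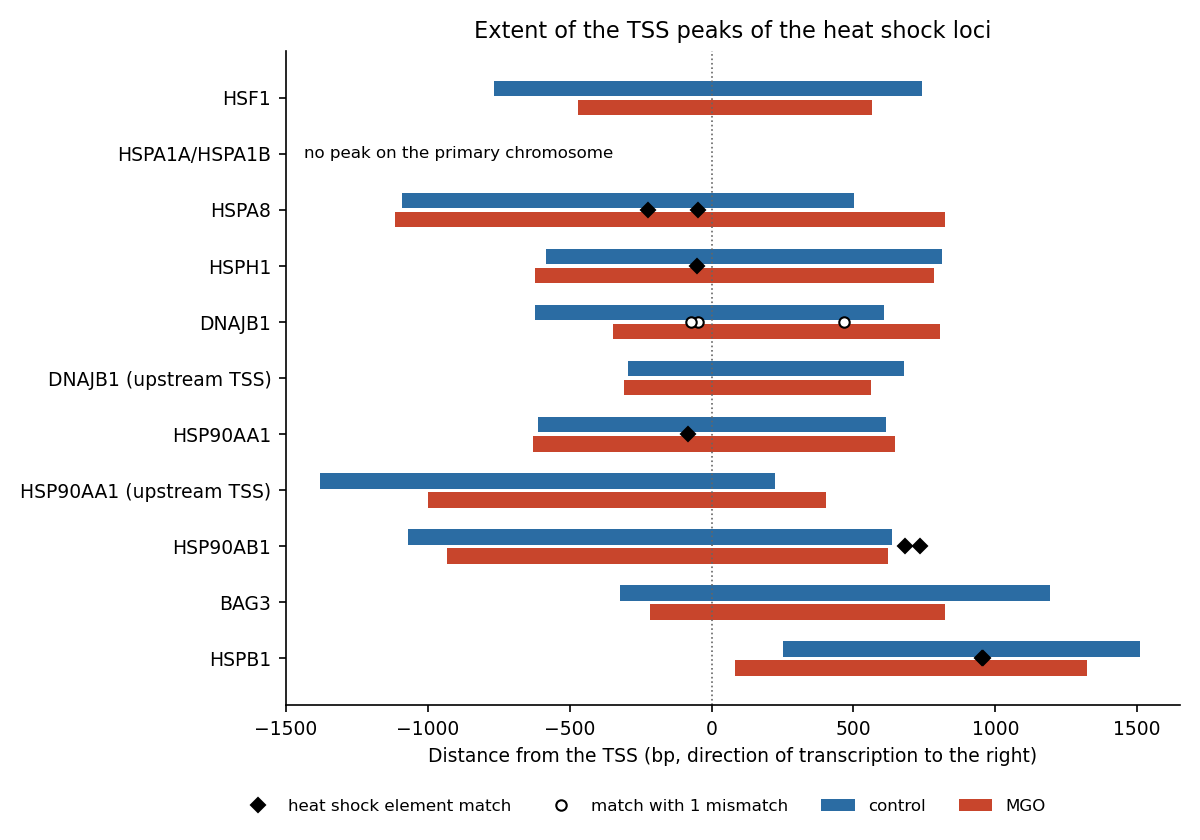
Start and end of each TSS peak in the control (blue) and MGO (red) lists, in bp from the canonical TSS of the gene, or from an upstream TSS for the second peaks of DNAJB1 and HSP90AA1. Diamonds mark exact heat shock element matches, and open circles those with 1 mismatch at DNAJB1, such matches at other genes not being drawn. All 10 peak pairs overlap, HSPB1 peaks begin after the TSS, the HSP90AB1 matches lie outside both peaks, and HSPA1A/HSPA1B have no peak on the primary chromosome.

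HSF1 encodes the heat shock factor itself and spans chr8:144291591-144314720 on the plus strand. Its control peak, chr8:144290837-144292346, was 1510 bp wide and reached from 767 bp before to 742 bp after the canonical TSS. The MGO peak, chr8:144291132-144292168, was 1037 bp wide and lay wholly within it, so that it covered 68.7% of the control peak. The upstream edge lay 295 bp and the downstream edge 178 bp further in. The peak was narrower in MGO but more confident. Its fold enrichment was 2.67 in control and 3.23 in MGO, and −log10 p was 4.34 and 8.55, which put the peak at percentile 10.7 of the control and percentile 62.8 of the MGO TSS peaks. HSF1 shares this peak with BOP1, a ribosome biogenesis gene that starts 153 bp away on the opposite strand, so the peak cannot be assigned to 1 of the 2 genes. Of the 14 annotated TSSs of HSF1, 4 lay within 1000 bp of a peak in each list, and the others, which lie further into the gene, had none. Neither peak held an exact heat shock element match.

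HSPA8 encodes the constitutive HSP70 of the cytosol and spans chr11:123057489-123063230 on the minus strand. It had the most confident TSS peak of the 10 in both lists. The control peak, chr11:123061635-123063227, was 1593 bp wide with a fold enrichment of 3.39 and a −log10 p of 14.1. The MGO peak, chr11:123061314-123063253, was 1940 bp wide with a fold enrichment of 3.03 and a −log10 p of 11.4. It contained the whole control peak and extended 321 bp further into the gene, and the width ratio of 1.22 was the highest of the 10 pairs. The lower −log10 p in MGO left the rank of the peak in its list nearly where it was, at percentile 81.3 in control and 82.5 in MGO. Both heat shock element matches lay in both peaks. An unnamed lncRNA, ENSG00000288061, starts 14 bp from a TSS of HSPA8 on the opposite strand, within the peak.

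HSPH1, the HSP110 exchange factor that resets HSP70, spans chr13:31134973-31162388 on the minus strand. Its peaks were the least shifted of the single-promoter genes. The control peak, chr13:31161091-31162488, was 1398 bp wide, the MGO peak, chr13:31161119-31162527, was 1409 bp wide, and they shared 1370 bp. The edges differed by 39 and 28 bp. Fold enrichment was 3.51 in control and 3.34 in MGO, with a −log10 p of 11.0 and 9.65. The match to the heat shock element lay within both.

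DNAJB1, the HSP40 that delivers clients to HSP70 and is itself a target of HSF1, spans chr19:14514769-14560391 on the minus strand and had 2 TSS peaks in each list. At the canonical TSS the control peak, chr19:14517789-14519020, was 1232 bp wide, and the MGO peak, chr19:14517591-14518743, was 1153 bp wide. They shared 955 bp, and the MGO peak lay further into the gene, its edges moved by 277 bp upstream of the TSS and 198 bp downstream. Fold enrichment was 3.46 in control and 2.72 in MGO, and −log10 p was 8.17 and 6.06, so the canonical promoter had the weaker peak in MGO. An exact heat shock element was not found there, and 3 matches with 1 mismatch lay within both peaks, the nearest 52 bp before the canonical TSS. The second peak, control chr19:14529125-14530099 and MGO chr19:14529240-14530111, was 975 and 872 bp wide. Its fold enrichment was 3.36 and 3.25 and its −log10 p 6.84 and 6.80, a smaller difference than at the canonical TSS. This peak also holds a TSS of TECR, an enzyme of fatty acid elongation, 106 bp from the DNAJB1 TSS on the other strand.

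HSP90AA1 encodes the stress-inducible HSP90 of the cytosol and spans chr14:102080742-102139699 on the minus strand. At its canonical TSS the control peak, chr14:102086430-102087656, was 1227 bp wide and lay wholly within the MGO peak, chr14:102086397-102087674, of 1278 bp. The edges differed by 18 and 33 bp, the closest agreement in position among the 10 pairs. The strength of the peak differed most: fold enrichment was 4.05 in control, the highest of the 10, and 2.71 in MGO, a ratio of 0.669. The −log10 p was 10.8 and 6.50, and the percentile by fold enrichment among TSS peaks of the same list 74.2 and 15.8. At the upstream TSS the control peak, chr14:102139241-102140844, was 1604 bp and the MGO peak, chr14:102139061-102140463, 1403 bp wide. There the fold enrichment was 3.55 and 3.31, and −log10 p 9.13 and 8.42. The upstream peak also holds a TSS of WDR20, 38 bp away on the other strand.

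HSP90AB1 encodes the constitutive HSP90 of the cytosol and spans chr6:44246166-44253888 on the plus strand. Its control peak, chr6:44246032-44247738, was 1707 bp wide, the widest control TSS peak of the loci, and contained the MGO peak, chr6:44246167-44247722, of 1556 bp. Here the MGO peak was the more confident, with a −log10 p of 7.20 in control and 10.2 in MGO, while fold enrichment was nearly level at 3.22 and 3.35. The direction is thus opposite to that at the HSP90AA1 canonical promoter. Each is 1 value against 1 value, and the difference between the 2 genes was not tested. The heat shock element matches began 40 and 93 bp past the downstream edge of the control peak and lay in neither peak.

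BAG3, an exchange factor of HSP70 that directs clients to autophagy, spans chr10:119651380-119677819 on the plus strand. The control peak, chr10:119651059-119652574, was 1516 bp wide, and the MGO peak, chr10:119651162-119652202, was 1041 bp wide and lay within it. The ratio of widths was 0.687, the same as at HSF1. As at HSF1, the narrower MGO peak was the more confident. Fold enrichment was 3.15 in control and 3.50 in MGO, and −log10 p was 6.67 and 9.60. Most of the difference in width was on the gene side, where the MGO edge lay 372 bp further in, against 103 bp upstream. The second TSS of BAG3 had no peak within 1000 bp in either list.

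HSPB1 (HSP27), a small heat shock protein that holds unfolded proteins, spans chr7:76302673-76304295 on the plus strand. It had the weakest TSS peak of the 10 in control. The control peak, chr7:76302926-76304183, was 1258 bp wide with a fold enrichment of 2.39, a −log10 p of 3.51 and a −log10 q of 1.36, which is below the threshold of 2. The MGO peak, chr7:76302755-76303995, was 1241 bp wide, with a fold enrichment of 2.87, a −log10 p of 6.07 and a −log10 q of 3.51. Both peaks lay over the gene and not over the RefSeq promoter: they began 253 bp after the canonical TSS in control and 82 bp after it in MGO. The exonic heat shock element match, 947 bp after the canonical TSS and 43 bp after another annotated TSS, lay within both.

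Over the 10 pairs, 7 MGO peaks were narrower than their control peaks and 3 were wider, which is 7 of 10 beside 67.9% of all 11559 pairs of TSS peaks. The median width ratio was 0.924, beside 0.90 over all pairs, and it turned to 1.01 at a −log10 q of at least 5. Only the pairs of HSPH1, HSPA8 and the upstream HSP90AA1 TSS were left there, with ratios of 1.01, 1.22 and 0.875. Within 1000 bp of the TSSs, control peaks covered 13681 bp and MGO peaks 12930 bp, a ratio of 0.945 beside 0.856 over all protein-coding genes. The coverage ratio turned to 1.04 when peaks below a −log10 q of 2 were dropped, so its direction depends on the threshold. By locus it ran from 0.687 at HSF1 to 1.22 at HSPA8.

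In confidence the pairs fell into both directions. A higher −log10 p in MGO was found in 4 of 10 pairs, HSF1, HSP90AB1, BAG3 and HSPB1, beside 22.5% of all pairs, and a higher fold enrichment in the same 4, beside 25.3%. These 4 had low control values, and across all pairs the weakest control peaks were those most often higher in MGO. When all pairs were divided by control −log10 p into 5 groups of equal size, 53.8% were higher in MGO in the lowest group, followed by 27.1%, 18.7%, 9.0% and 4.11%. Of the 5 heat shock pairs in the 2 lowest groups, 4 were higher in MGO, and of the 5 in the upper 3 groups, 0 were. The median difference in −log10 p, MGO minus control, was −0.369 over the 10 pairs and −1.72 over all pairs. With 10 pairs from 8 loci these are descriptions, and nothing particular to heat shock genes can be read from them.

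**Figure D2:**
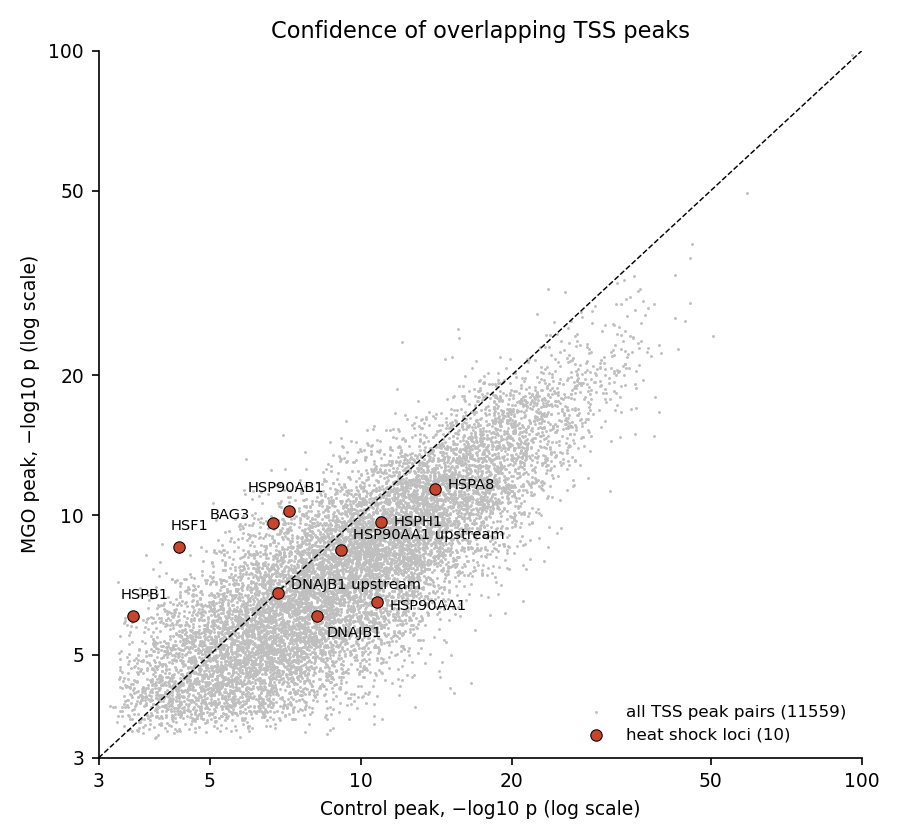
−log10 p of each control TSS peak against that of the overlapping MGO peak, both axes on a log scale. Grey points are the 11559 pairs at protein-coding genes, red points the 10 pairs of the heat shock loci, and the dashed line marks equal values. Most pairs lie below the line, and HSF1, HSP90AB1, BAG3 and HSPB1 lie above it.

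Sequence under the peaks was compared next. Of the 10 TSS peaks, 4 in each library held an exact heat shock element match (HSPA8, HSPH1, HSP90AA1 canonical and HSPB1), beside 1.05% of control and 0.87% of MGO TSS peaks of all protein-coding genes. Per kilobase of peak that is 0.428 matches in control beside 0.0103 over all, and 0.464 in MGO beside 0.00904. The genes were named for their link to HSF1, so these shares describe the members and not an effect of MGO. The median GC content of the peaks was 64.7% in control and 65.3% in MGO, beside 64.3% and 66.0% over all TSS peaks. Peaks with a match did not share a direction: the −log10 p was lower in MGO at HSPA8, HSPH1 and HSP90AA1 and higher at HSPB1.

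HSPA1A and HSPA1B encode the main stress-inducible HSP70 and had no peak on the primary chromosome in either list, while peaks lay at HSPA1B on alternate sequences of the region. HSPA1A lies at chr6:31815543-31817946 and HSPA1B at chr6:31827738-31830254, both on the plus strand in the major histocompatibility complex. On that chromosome neither list had a peak within 1000 bp of either TSS or over either body. The nearest peak there was 85346 bp from a TSS of the pair in the control list and 75300 bp in the MGO list. The genes share an identical run of 1715 bp, and the authors removed reads that map to more than 1 place. None of the 1952 words of 50 bases, the read length, around either TSS occurs once in the 455 sequences of the reference, which include alternate versions of this region. The words around each TSS occur a median of 5 times. Without the alternate sequences, 61.9% of the words around HSPA1A and 61.8% around HSPA1B occur once. At the other 8 loci between 95.2% and 100% of words around the canonical TSS occur once.

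The same measure went with peaks across the genome. Of the 893 protein-coding genes with under 5% of words found once, 27.4% had a control and 24.2% an MGO TSS peak, beside 71.8% and 68.3% of the 17583 genes with at least 90%. Within 1 Mb of HSPA1A, 83 of 95 protein-coding genes were under 5%, and 9 had a TSS peak in each list. Around HSP90AB1, on the same chromosome, 0 of 30 genes were under 5% and 22 had a TSS peak in each list. BAG6, a chaperone cofactor, and HSPA1L, a testis HSP70, lie in the same complex and had no TSS peak on the primary chromosome either. On the alternate sequences, which carry 4 copies of each gene, 1 of the 8 copies had a control peak within 1000 bp of the TSS and 2 had an MGO peak, all of them of HSPA1B. One HSPA1B copy had a peak in both libraries, in control 420 bp wide with a fold enrichment of 3.14 and a −log10 p of 4.37, and in MGO 1558 bp wide with 3.02 and 4.15. Another HSPA1B copy had a peak in MGO alone, 610 bp wide with 2.99 and 4.06. The control peak had a −log10 q of 2.11, and both MGO peaks were below the threshold of 2, at 1.74 and 1.66. Reads were thus placed at HSPA1B in both libraries. For HSPA1A, which had no TSS peak on the primary chromosome or on the 4 alternate copies, closed chromatin cannot be told apart from reads that could not be placed.

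**Figure D3:**
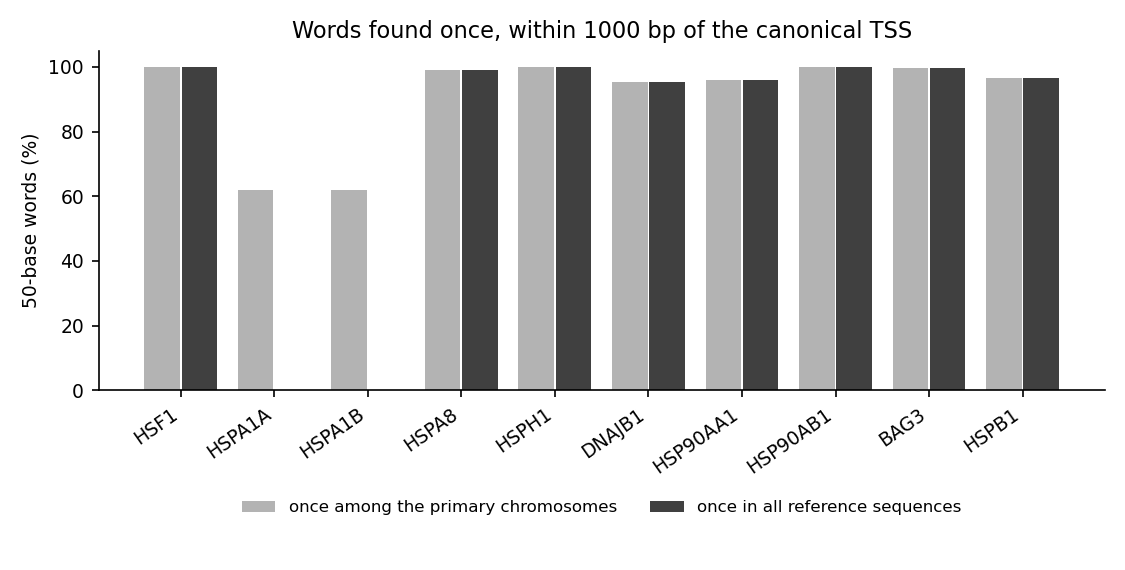
Share of the 50-base words within 1000 bp of the canonical TSS of each gene that occur once, in percent, among the primary chromosomes (light) and in all reference sequences (dark). HSPA1A and HSPA1B are at 61.9% and 61.8% among the primary chromosomes and at 0% in all sequences, and the other 8 genes are at 95.2% or above in both.

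Away from the TSS, a peak over the gene body was found at 2 of the 9 loci in control and at 1 in MGO, beside 24.8% and 15.1% of protein-coding genes. All 3 were intronic and each was in 1 library alone. DNAJB1 had a control peak at chr19:14537049-14537491 (443 bp, −log10 p 3.87) and BAG3 one at chr10:119667864-119668145 (282 bp, −log10 p 4.39). HSP90AA1 had an MGO peak at chr14:102116178-102116828 (651 bp, −log10 p 3.70). The peaks of DNAJB1 and HSP90AA1 were below a −log10 q of 2, and that of BAG3 was just above it at 2.12.

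In the surroundings, the lists shared most peaks at promoters of neighbouring genes. Of the 56 control peaks within 100 kb, TSS and body peaks included, 39 overlapped an MGO peak (69.6%, interval 56.7 to 80.1), beside 49.7% of all control peaks. In the other direction, 39 of 47 overlapped (83.0%, interval 69.9 to 91.1), beside 78.9%. The share was 85.7% (30 of 35, interval 70.6 to 93.7) for control peaks at a TSS of any gene and 42.9% (9 of 21, interval 24.5 to 63.5) for those over 1000 bp from one, beside 84.6% and 24.3% over all control peaks of each kind. Without the 10 TSS peaks of the members, 20 of 25 control peaks at a TSS of a neighbouring gene overlapped (80.0%, interval 60.9 to 91.1). Since 35 of the 56 peaks lay at a TSS, the share over all 56 cannot be compared directly with that of the whole list. The number of MGO peaks was 0.839 times that of control peaks (exact interval 0.557 to 1.26), beside 0.630 over the whole lists. With equal numbers of peaks taken from each list the ratio was 1.34, so it depends on how the lists are matched.

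The peaks found in 1 list alone were narrow and weak. The 17 control-only peaks had a median −log10 p of 3.87 and a median width of 443 bp, against 6.84 and 883 bp for the 39 that overlapped. For the 8 MGO-only peaks the medians were 3.77 and 334 bp, against 6.27 and 925 bp. Of these 25 peaks, 3 control peaks and 2 MGO peaks reached a −log10 q of 2. Among them were the BAG3 intron peak, the control peak in B3GLCT near HSPH1, and the MGO peaks at MSH5 near HSPA1A and at NDUFB7 near DNAJB1.

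**Figure D4:**
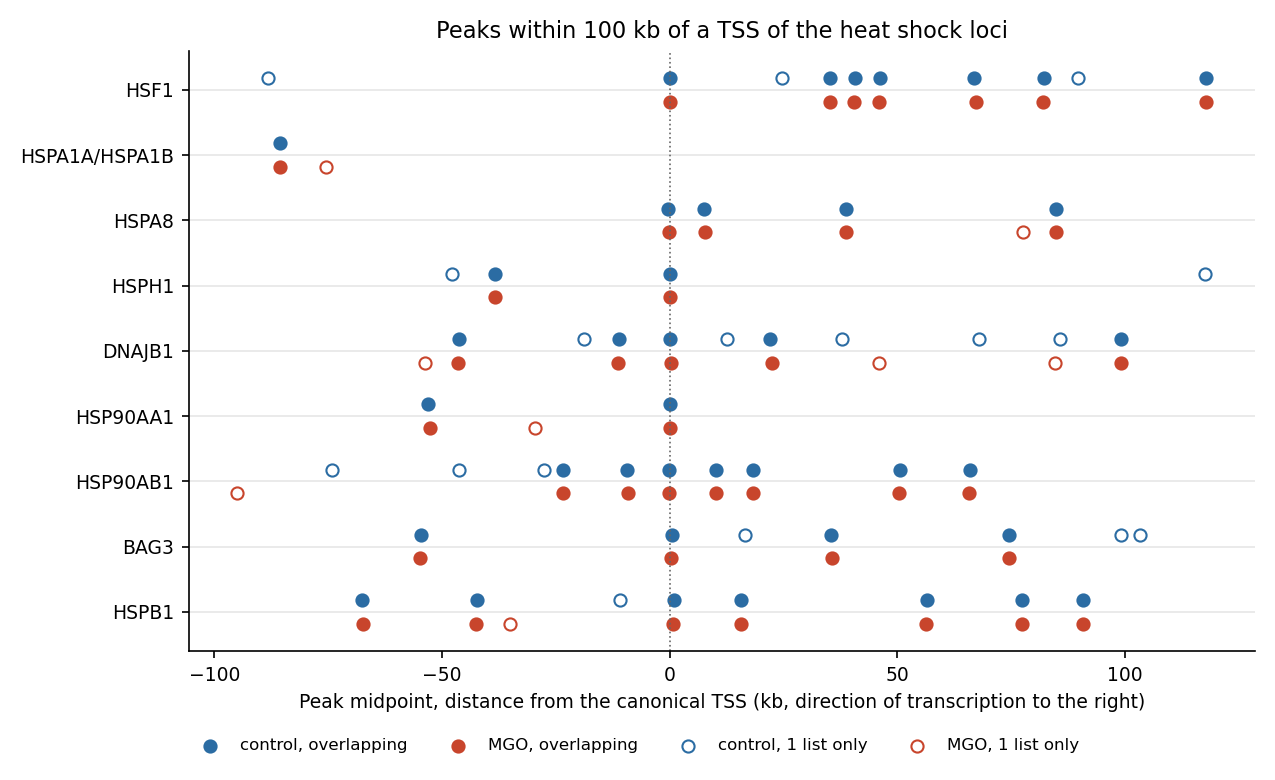
Midpoints of all control (blue, upper) and MGO (red, lower) peaks within 100 kb of a TSS of each locus, in kb from the canonical TSS. Points lie past 100 kb where a gene has other TSSs further along. Filled points overlap a peak of the other list and open points do not. Overlapping pairs make up 39 control and 39 MGO peaks, and 17 control and 8 MGO peaks stand alone.

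Around HSF1 there were 10 control and 7 MGO peaks, and all 7 MGO peaks overlapped a control peak. The nearest shared pair past the promoter lay at a TSS of DGAT1, chr8:144326399-144327264 in control (866 bp) and chr8:144326462-144327047 in MGO (586 bp). Next came chr8:144331869-144332563 (695 bp) with chr8:144331899-144332392 (494 bp) in an exon of SCRT1, and chr8:144337687-144338096 (410 bp) with chr8:144337088-144338157 (1070 bp) in an intron of SLC52A2. The pair between FBXL6 and SLC52A2 was chr8:144357970-144358971 (1002 bp) and chr8:144358438-144359365 (928 bp), overlapping by 534 bp. In all of these the MGO peak had the lower −log10 p. At ADCK5 the control peak chr8:144372770-144374746 (1977 bp, −log10 p 6.23) contained the MGO peak chr8:144372920-144374493 (1574 bp, 4.41). At CPSF1 the order was the other way, with a −log10 p of 4.27 at chr8:144409114-144409734 in control and 5.58 at chr8:144409102-144409830 in MGO. The control-only peaks were chr8:144203213-144203527 in MROH1, chr8:144316177-144316497 in DGAT1 and chr8:144381130-144381415 in ADCK5, each at most 321 bp wide and below a −log10 q of 2.

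Around HSPA1A and HSPA1B there was 1 control peak, chr6:31729773-31730197 at DDAH2 (425 bp, −log10 p 4.12), which shared 337 bp with the MGO peak chr6:31729861-31730280 (420 bp, 5.99). A second MGO peak, chr6:31739927-31740243 (317 bp, −log10 p 6.02), lay at MSH5, a meiotic recombination gene, with no control peak. It was the most confident of the 25 peaks found in 1 list.

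Around HSPA8 all 4 control peaks overlapped an MGO peak. Past the promoter they were all intergenic. The pair nearest the gene, chr11:123054416-123054894 in control (479 bp, −log10 p 5.78) and chr11:123054209-123054610 in MGO (402 bp, 3.67), shared 195 bp. Further out, chr11:123023204-123023549 (346 bp, 4.82) paired with chr11:123023099-123023542 (444 bp, 3.65). Both of these were weaker in MGO. Near BSX, a homeobox gene, the pair chr11:122977084-122977687 (604 bp, 3.28) and chr11:122977110-122977588 (479 bp, 6.27) was stronger in MGO, and an MGO-only peak lay at chr11:122984364-122984672 (309 bp, 4.35).

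The HSPH1 surroundings held 4 control and 2 MGO peaks. Beside the promoter pair, the control peak chr13:31199729-31200883 (1155 bp, −log10 p 13.7) and the MGO peak chr13:31199776-31200888 (1113 bp, 10.1) shared 1108 bp at a TSS of B3GLCT, a glycosyltransferase. The control-only peak chr13:31209391-31210067 (677 bp, −log10 p 5.55), in an intron of B3GLCT, was the most confident control-only peak of the 17. The other, chr13:31044041-31044594 (554 bp, 4.01), lay in an intron of the lncRNA ENSG00000286286.

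The DNAJB1 surroundings held 10 control and 8 MGO peaks, of which 5 in each list overlapped, and had the most peaks in 1 list alone. The shared pairs away from DNAJB1 lay at TSSs. At DDX39A they were chr19:14418828-14419660 in control (833 bp, −log10 p 7.77) and chr19:14418812-14419614 in MGO (803 bp, 6.38). At GIPC1 they were chr19:14495849-14496663 (815 bp, 6.96) and chr19:14495531-14496455 (925 bp, 4.92). Both were lower in MGO. At a TSS of TECR they were chr19:14564409-14564855 (447 bp, 4.65) and chr19:14564391-14565474 (1084 bp, 5.34), the wider and more confident peak being that of MGO. Control-only peaks away from the gene included chr19:14480208-14480798 (591 bp) at GIPC1 and chr19:14505520-14505968 (449 bp), intergenic. MGO-only peaks included chr19:14472321-14472630 (310 bp) in PTGER1 and chr19:14571917-14572285 (369 bp, −log10 p 5.05) at a TSS of NDUFB7, a subunit of respiratory complex I.

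Around HSP90AA1 there were no further peaks beside the promoter pairs and the MGO intron peak already given. HSP90AB1 had 10 control and 8 MGO peaks nearby. Upstream, chr6:44237426-44238192 in control (767 bp, −log10 p 4.16) and chr6:44237617-44238186 in MGO (570 bp, 7.96) lay in intergenic DNA, with near edges at −8909 and −8915 bp from the canonical TSS. This pair was the 1 shared pair away from any TSS near the gene, and its −log10 p was higher in MGO like that of the promoter. At SLC29A1, a nucleoside transporter, chr6:44223463-44224070 (608 bp, 4.60) paired with chr6:44223387-44223974 (588 bp, 5.18). Downstream, SLC35B2 also had the higher MGO value, with chr6:44257109-44257677 (569 bp, 6.84) and chr6:44256932-44257616 (685 bp, 8.68). The other promoters were lower in MGO. At NFKBIE, an inhibitor of NF-kappaB, the pair was chr6:44265008-44265723 (716 bp, 9.90) and chr6:44265036-44265716 (681 bp, 7.32). At TCTE1 it was chr6:44297293-44298198 (906 bp, 5.28) and chr6:44297429-44297749 (321 bp, 3.69), and at AARS2 chr6:44312870-44313478 (609 bp, 10.9) and chr6:44312411-44313495 (1085 bp, 5.85). The peaks in 1 list were all below a −log10 q of 2. They were chr6:44172665-44173093, chr6:44200787-44201087 and chr6:44219283-44219674 in control, 429, 301 and 392 bp wide, and chr6:44152007-44152295 in MGO, 289 bp wide.

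BAG3 had 7 control and 4 MGO peaks nearby, and all 4 MGO peaks overlapped. At TIAL1, an RNA-binding protein gene, the control peak chr10:119596085-119597588 (1504 bp, −log10 p 16.9) and the MGO peak chr10:119595918-119597340 (1423 bp, 12.5) shared 1256 bp. At INPP5F they were chr10:119725311-119726649 (1339 bp, 12.7) and chr10:119725406-119726635 (1230 bp, 8.10). Both neighbours were thus weaker in MGO, unlike the BAG3 promoter. An intergenic pair downstream of BAG3, chr10:119686310-119687126 (817 bp, 4.33) and chr10:119686674-119687247 (574 bp, 5.85), had the higher value in MGO. Control-only peaks in INPP5F lay at chr10:119750054-119750790 (737 bp) and chr10:119754245-119755081 (837 bp), both below a −log10 q of 2.

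HSPB1 had 8 peaks nearby in each list, 7 of them overlapping. All shared peaks other than that of HSPB1 itself had a lower −log10 p in MGO. In SRRM3, a splicing factor gene, they were chr7:76234956-76235461 in control (506 bp, 8.61) with chr7:76235081-76235428 in MGO (348 bp, 4.72), and chr7:76259890-76260772 (883 bp, 4.61) with chr7:76259917-76260604 (688 bp, 4.17). At the lncRNA ENSG00000289059 the pair was chr7:76317859-76318849 (991 bp, 12.6) and chr7:76317933-76318833 (901 bp, 6.30). At YWHAG, a 14-3-3 protein gene, it was chr7:76358421-76359826 (1406 bp, 13.1) and chr7:76358379-76359642 (1264 bp, 10.6). An intergenic pair was chr7:76379701-76380500 (800 bp, 9.59) and chr7:76379621-76380547 (927 bp, 9.08), and at SSC4D it was chr7:76392964-76393898 (935 bp, 12.9) and chr7:76393016-76393799 (784 bp, 11.5). One weak peak stood alone in each list, chr7:76291545-76292083 in control (539 bp) and chr7:76267436-76267786 in MGO (351 bp).

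Of 72 other chaperone and stress genes, listed by role and not by how they moved, 58 had a TSS peak in both libraries, 1 in control alone, 2 in MGO alone and 11 in neither. That is 81.9% with a control and 83.3% with an MGO peak, beside 67.3% and 63.9% of all protein-coding genes. Which library had more depended on the setting, with 59 control and 58 MGO genes at a −log10 q of at least 2. Windows of 2000 bp gave 61 control and 60 MGO genes. All 10 chaperonin genes and all 6 of the other stress-induced genes had peaks in both, as did 11 of 12 J-domain cochaperones and 12 of 13 genes of the HSP90 family and its cochaperones. Among the small heat shock proteins, 7 of 9 were in neither list. These 7 were CRYAA, CRYAB, HSPB2, HSPB3, HSPB7, HSPB8 and HSPB9, while HSPB6 and HSPB11 had a peak in both lists.

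The genes with a peak in 1 library were HSF4, a heat shock factor of the lens (control, fold enrichment 3.0, −log10 p 5.44), DNAJA4, a J-domain protein (MGO, 2.86 and 3.82), and STUB1, a ubiquitin ligase that works with HSP70 and HSP90 (MGO, 2.09 and 4.60). Of the 58 genes in both, 11 had a higher −log10 p in MGO and 14 a higher fold enrichment, with a median difference of −1.70 in −log10 p, beside −1.72 for all TSS peak pairs. The highest control fold enrichment of the list was at CCT2, a subunit of the cytosolic chaperonin, with 5.34 in control and 4.55 in MGO. The lowest was at SQSTM1, an autophagy receptor, with 2.52 and 2.56.

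**Figure D5:**
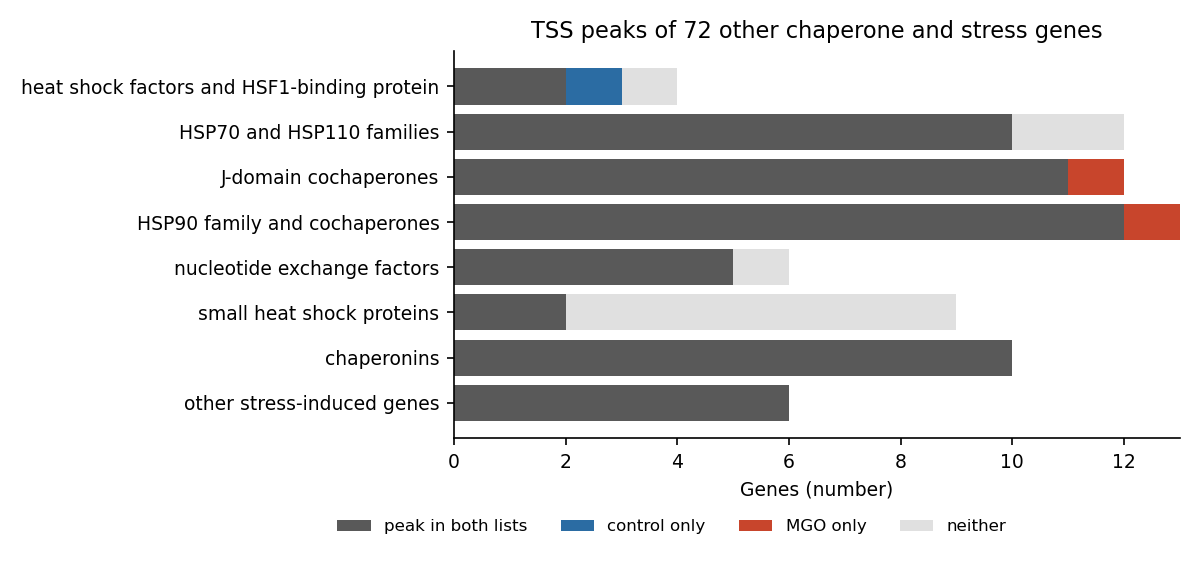
Number of other chaperone and stress genes with a TSS peak in both lists, in control alone, in MGO alone or in neither, by role. Of 72 genes 58 are in both, and 7 of the 11 in neither are small heat shock proteins.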

How the data were processed

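The data were the deposited broad peak lists of 1 control and 1 MGO library, which per the study's methods and the submitters' processing notes were made by demultiplexing with bcl2fastq 2.19, aligning to GRCh38 with BWA 0.7.15, removing mitochondrial and multi-mapping reads with Picard, subsampling reads to equal depth and calling broad peaks with MACS2 outside the ENCODE blacklist. The version of MACS2 is not given in the sources used here. The authors deposited for each peak a fold enrichment (a ratio over background), −log10 p and q values, and a score, which was not used.

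Peaks were compared with GENCODE 44 and counted as overlapping from 1 bp. Shares have 95% Wilson intervals and ratios exact binomial intervals, which cover counting error only. Words and motifs were counted in hg38. Promoters came from RefSeq. Overlaps and word counts were tested on simulated data. Python 3.11.15, numpy 2.4.6, pandas 2.3.3, scipy 1.17.1, numba 0.67.0 and matplotlib 3.10.9 were used. The members and lists were chosen with earlier results of these data known. Named were all members and other chaperone genes with a peak in 1 list or the highest or lowest control fold. The small heat shock proteins of that list, BAG6 and HSPA1L were also named. To place each peak, neighbouring genes were named, including more than the 12 that the naming rule allowed. HSPB11 was matched as IFT25. Alternatives were higher −log10 q thresholds, equal numbers of peaks, stricter overlap, other TSS windows, 1 TSS per gene, a smaller surrounding region, peaks away from TSSs, looser motifs and longer words. Some peaks near DNAJB1 and 1 marker gene are not reported here.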

Additional observations from a re-analysis of the deposited data

How the results depend on the processing

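Of the 64 recomputed values, 3 came from reference sequence alone and the rest from 1 library per condition, so none measures stability between cultures. In all, 48 stayed within the interval, 1 SD over loci or 1.5-fold range of the reported value and 16 did not. No paired analysis was possible because each condition had 1 library. Depth per peak is unknown.

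At a −log10 q of at least 2, body peaks were at 1 locus in control and 0 in MGO. At a −log10 q of at least 5, 4 loci had a control TSS peak and 6 an MGO peak. The control TSS peaks left at that threshold were those of HSPA8, HSPH1, HSP90AA1 (both) and DNAJB1 (canonical), and 60% of them overlapped an MGO peak. Of control peaks within 100 kb, 56.2% overlapped (59.2% over the whole lists). Shares over the whole lists, here and below, cover peaks at and away from TSSs and cannot be compared directly. Covered length at this threshold was 1.21 times the control, and body peaks were at 0 loci in both lists. Of the other chaperone genes, 43 had a control and 37 an MGO TSS peak at this threshold. With equal numbers of peaks, 6 loci had a control TSS peak (7 at a −log10 q of at least 2), 91.4% of control peaks within 100 kb overlapped (70.7% over the whole lists), the ratio of peak numbers was 1.34, covered length was 1.18 times the control and 1 locus had a control body peak. Covered length was also above 1 at a −log10 q of at least 2 (1.04) and in windows of 500 bp (1.01). Over 1000 bp from any TSS, 42.9% of control peaks overlapped. With 1 mismatch, or with 2 units of the heat shock element, 7 genes had a promoter match instead of 3.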
